A study of Mus musculus with 13 samples.

Results

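STAT5A binding was compared in Ba/F3 cells with and without interleukin 3 (IL3), which covers 4 of the 13 samples of the study. Ba/F3 cells are pro-B cells of the mouse, grown as a line whose growth and survival need IL3. The cultures were maintained in 1 ng/mL IL3 and starved of the cytokine for 6 h, which is the condition without IL3. For the condition with IL3, the 6 h of starvation was followed by 30 min in 10 ng/mL IL3. Chromatin immunoprecipitation with sequencing (ChIP-seq) used an antibody whose stated target is STAT5a (Santa Cruz sc1081X), with 2 biological replicates in each condition. The members are the regions that the authors called in each of the 4 libraries, 13572 and 6280 with IL3 and 352 and 4504 without, on assembled chromosomes of mm10. The rule names the antibody and the condition. The lists that the authors called on the pooled libraries of each condition are given in support only. The study also profiled the histone demethylase LSD1 and the histone deacetylase HDAC3 in the same conditions, and an input library from cells kept in IL3, which was not used here. All libraries come from 1 cell line, so the p-values measure the spread between cultures of that line.

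IL3 binds a receptor made of an alpha chain and a signalling beta chain that carries the kinase JAK2. Activated JAK2 phosphorylates STAT5A and its close relative STAT5B, which then pair, enter the nucleus and bind the palindrome TTCNNNGAA, known as a GAS element. In blood cell progenitors the classical STAT5 targets are feedback inhibitors of cytokine signalling such as Cish, PIM kinases, and genes of the BCL2 family that set cell survival.

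The promoter windows below are printed as chosen examples of called regions at the level of sequence. Each runs from 250 bases before to 50 bases after a transcript start, on the strand of the gene, as RefSeq gives it on GRCm38.p6, the mm10 build. Capitals mark every match to TTCNNNGAA, a motif that reads the same on both strands. Cish and Csf2rb2 belong to the gene lists described further on, and the other windows were chosen after their values were seen. The first 4 windows held a region in both lists with IL3. The last 2, at Pim1 and Lbr, held regions without IL3 and no match.
Cish, chr9:107296409-107296708, plus strand: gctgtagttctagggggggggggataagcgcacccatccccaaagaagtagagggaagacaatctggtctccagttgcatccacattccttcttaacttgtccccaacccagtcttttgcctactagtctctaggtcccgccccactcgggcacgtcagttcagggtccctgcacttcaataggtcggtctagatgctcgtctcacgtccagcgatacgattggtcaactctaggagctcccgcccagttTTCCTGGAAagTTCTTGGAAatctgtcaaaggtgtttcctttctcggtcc
Csf2rb2, chr15:78305672-78305971, minus strand: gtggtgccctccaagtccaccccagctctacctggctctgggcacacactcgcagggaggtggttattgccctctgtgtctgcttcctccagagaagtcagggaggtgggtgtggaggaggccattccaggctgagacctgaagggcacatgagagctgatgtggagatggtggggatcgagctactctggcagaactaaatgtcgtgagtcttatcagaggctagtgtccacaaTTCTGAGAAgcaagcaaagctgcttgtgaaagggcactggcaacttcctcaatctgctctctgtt
Prpf31, chr7:3629735-3630034, plus strand: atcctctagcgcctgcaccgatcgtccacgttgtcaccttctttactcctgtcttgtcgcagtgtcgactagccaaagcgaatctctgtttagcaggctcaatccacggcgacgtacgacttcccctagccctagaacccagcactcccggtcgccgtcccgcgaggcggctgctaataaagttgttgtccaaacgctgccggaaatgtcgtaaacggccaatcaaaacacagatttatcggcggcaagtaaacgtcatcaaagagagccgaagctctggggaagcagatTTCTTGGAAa
Ubash3b, chr9:41158013-41158312, minus strand: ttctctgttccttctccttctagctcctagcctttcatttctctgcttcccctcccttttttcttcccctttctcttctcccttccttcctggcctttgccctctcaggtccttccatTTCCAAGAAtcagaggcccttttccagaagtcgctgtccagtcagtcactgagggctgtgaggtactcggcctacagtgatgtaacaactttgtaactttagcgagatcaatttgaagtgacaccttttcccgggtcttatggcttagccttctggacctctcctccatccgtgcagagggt
Pim1, chr17:29490535-29490834, plus strand: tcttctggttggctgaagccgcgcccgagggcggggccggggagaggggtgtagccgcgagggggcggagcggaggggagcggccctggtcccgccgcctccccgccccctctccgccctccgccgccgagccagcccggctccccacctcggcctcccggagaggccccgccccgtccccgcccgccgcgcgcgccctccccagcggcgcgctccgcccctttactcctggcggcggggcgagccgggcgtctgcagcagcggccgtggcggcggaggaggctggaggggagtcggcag
Lbr, chr1:181842352-181842651, minus strand: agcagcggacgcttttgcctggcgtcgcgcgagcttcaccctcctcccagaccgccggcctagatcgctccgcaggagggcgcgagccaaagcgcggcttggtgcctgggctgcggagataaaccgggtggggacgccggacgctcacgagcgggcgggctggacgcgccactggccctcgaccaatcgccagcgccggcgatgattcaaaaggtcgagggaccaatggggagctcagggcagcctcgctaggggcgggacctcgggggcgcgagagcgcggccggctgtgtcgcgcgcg

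Positions in these windows count the first transcribed base as 1, and negative positions lie before it. Cish encodes a feedback inhibitor that docks on cytokine receptors, and its window held 2 matches, TTCCTGGAA centred at 5 and TTCTTGGAA centred at 16. The centre of the region in with-IL3 replicate 1 lay 15 and 4 bases from these matches, that in with-IL3 replicate 2 lay 78 and 89 bases away and that in without-IL3 replicate 1 lay 24 and 13. The region had a score of 842.8 in with-IL3 replicate 1, 300.1 in with-IL3 replicate 2 and 43.8 in without-IL3 replicate 1, and the window overlapped no region in without-IL3 replicate 2. Csf2rb2 encodes the beta chain of the mouse IL3 receptor, and its match TTCTGAGAA was centred at -11. The regions there scored 208.8 and 50 in the lists with IL3, with centres 5 and 14 bases from the match, and neither list without IL3 held one.

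Prpf31, which encodes a splicing factor, carried TTCTTGGAA at 45, inside the transcript and 3 and 8 bases from the centres of regions that scored 436.3 and 150.0. Ubash3b, which encodes a phosphatase that dampens receptor signalling, carried TTCCAAGAA at -128, 10 and 26 bases from the centres of regions that scored 391.6 and 195.1. Both genes had no region in this window in either list without IL3. The start of Pim1, a serine/threonine kinase gene, was called in replicate 2 of each condition, with 45 with IL3 and 30.6 without. The start of Lbr, which encodes the lamin B receptor, was called in without-IL3 replicate 2 alone, with 74.7. G and C made up 81.3% of the Pim1 window and 72.0% of the Lbr window, against 53.3% at Cish and 50% to 55.0% at the other 3 windows with a match.

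The 4 lists differed in ways that the condition does not set. Each region has 1 score, deposited by the authors without a definition in the labels or the files. In each list the scores are whole multiples of a step, of 3.73 and 5.0 with IL3 and 5.47 and 3.39 without, and the lowest called regions held 4, 4, 5 and 5 steps. Scores are therefore read only within a list. Total read numbers were not analysed here, so the depth is unknown. Region width was fixed within each list at 173, 181, 235 and 141 bp. Without-IL3 replicate 1 stood apart, with 352 regions against 4504 in the other replicate.

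Giving IL3 was accompanied by more called STAT5A regions in each library. The lists with IL3 held 13572 and 6280 regions, and both exceeded the 4504 and 352 of the lists without. On the log2 scale the means were 13.2 ± 0.786 with and 10.3 ± 2.6 without IL3 (SD, n = 2 each), a difference of 2.87. An exact two-sided permutation test gave p = 0.33, the smallest value that 2 against 2 allows, and 0.555 after Benjamini-Hochberg adjustment over 5 tests of this kind. The difference was 1.04 without without-IL3 replicate 1 and 4.71 without without-IL3 replicate 2.

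Merging the 4 lists where regions overlapped by at least 1 bp gave 20764 regions. Of these, 1811 (8.72%) were gained, that is called in both lists with IL3 and in neither without. The opposite pattern, lost, held 10 regions (0.0482%). Most regions were called in a single list, with 11130 in with-IL3 replicate 1 alone, 3055 in with-IL3 replicate 2 alone, 2914 in without-IL3 replicate 2 alone and 134 in without-IL3 replicate 1 alone. Another 1069 were in replicate 2 of both conditions and in neither replicate 1, 237 were in both lists with IL3 and in without-IL3 replicate 2, and 49 were in all 4 lists. In the pooled lists, 99.9% of the gained regions were found with IL3 and 6.24% without. The pooled lists come from the same libraries as the rule, so these shares are not independent of it.

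Leaving out a list removes a requirement of the rule for gained regions, so the count could not fall. It rose more when a list with IL3 was left out. Without with-IL3 replicate 1, 4877 regions were called with IL3 and not without, and without with-IL3 replicate 2 the number was 12971. Leaving out a list without IL3 gave 1861 and 2036. The lost count, which could not fall either, rose to 2929 without without-IL3 replicate 1, to 145 without without-IL3 replicate 2 and to 32 without with-IL3 replicate 1.

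**Figure D1:**
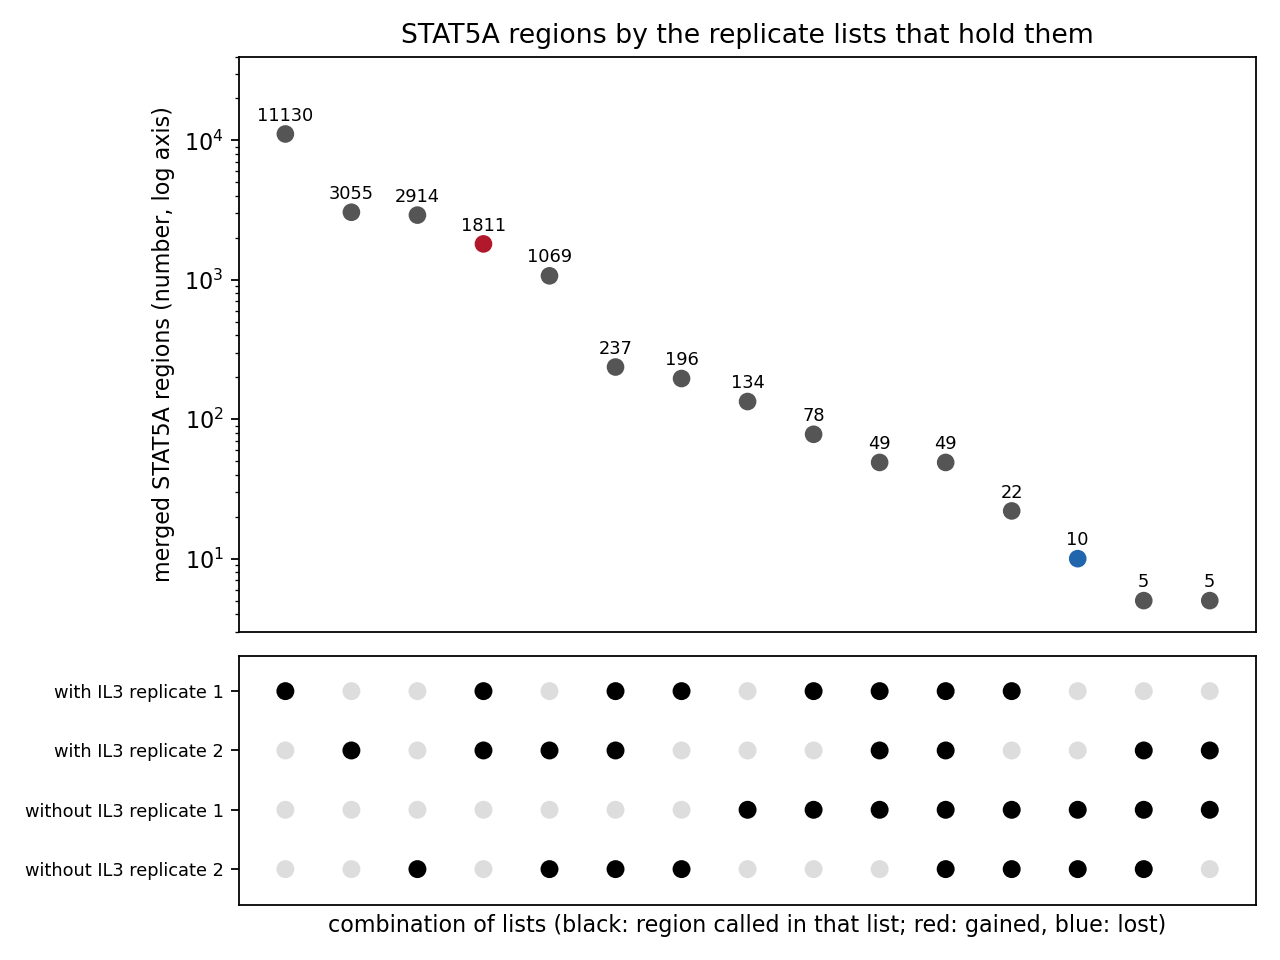
Number of merged STAT5A regions (log axis) for each combination of the 4 replicate lists, with black dots below marking the lists that hold the region. The 1811 gained regions (red) outnumber the 10 lost regions (blue), and 11130 regions are in with-IL3 replicate 1 alone.

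The highest-scoring gained regions lay mostly away from gene ends. The first by score in with-IL3 replicate 1 was chr17:29395508-29395763, 16101 bp from the nearest end of Fgd2, which encodes a guanine nucleotide exchange factor for Cdc42, with 977.0 and 335.1 in the lists with IL3. The second lay 448 bp from an end of Dcps, a gene for an mRNA cap-scavenging enzyme, with 868.9 and 170.1. The next 8 were nearest to or in Max, Hormad2, Rab44, Lrp12, Nsmce2, Bhlhe40, Dusp1 and Podxl, with 712.3 to 839.1 in replicate 1 and 35.0 to 335.1 in replicate 2. Of these, Dusp1 encodes a MAP kinase phosphatase and Bhlhe40 a transcriptional repressor. The nearest end of Max lay 94729 bp away and that of Dusp1 25558 bp away, so the gene names mark places and no target is implied. These distances are to ends of protein-coding genes. The nearest annotated transcript start lay 1975 bp from the region named for Max and 896 bp from that named for Dusp1.

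Agreement between the lists with IL3 rose with score. Of the 352 highest-scoring regions of with-IL3 replicate 1, 84.1% were called in with-IL3 replicate 2, 4.83% in without-IL3 replicate 1 and 2.84% in without-IL3 replicate 2. Of the 352 highest of with-IL3 replicate 2, 92.9% were called in with-IL3 replicate 1, 3.69% in without-IL3 replicate 1 and 17.0% in without-IL3 replicate 2. With each list divided by score into 10 parts of equal size, the share of with-IL3 replicate 1 found in with-IL3 replicate 2 was 65.2% in the highest part and 2.8% in the lowest. Over all 13572 regions it was 15.7%, and 34.0% of the 6280 regions of replicate 2 were found in replicate 1.

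Among the 352 highest-scoring regions of each list, the lists without IL3 shared 9.09%, against 37.5% between the lists with IL3. Over whole lists, the shares of replicates 1 and 2 found in each other were 23.6% and 1.84% without IL3. With IL3 they were 15.7% and 34.0%. Without-IL3 replicate 1 holds only 352 regions, which limits how many regions of another list it can match. Of the 352 regions of without-IL3 replicate 1, 23.6% were called in without-IL3 replicate 2, 55.4% in with-IL3 replicate 1 and 29.3% in with-IL3 replicate 2. Of the 352 highest regions of without-IL3 replicate 2, 59.9% were called in with-IL3 replicate 2, 25.3% in with-IL3 replicate 1 and 9.09% in without-IL3 replicate 1. Scores of shared regions had a Spearman correlation of 0.47 over 2133 regions between the lists with IL3 and of 0.09 over 83 regions between those without. These are correlations across regions, which share their libraries and are not replicates.

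**Figure D2:**
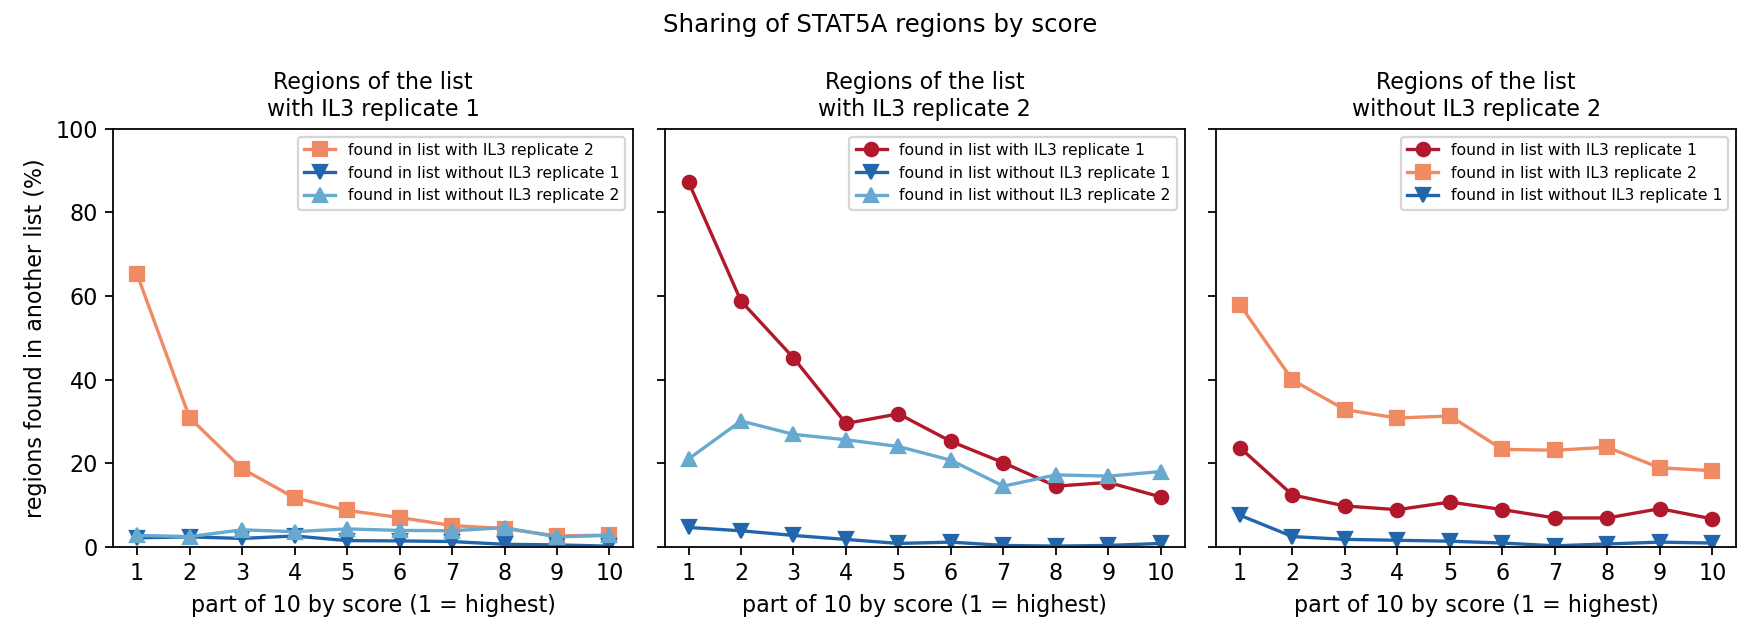
Share of STAT5A regions (%) found in each of the other 3 lists, by 10 equal parts of the list from the highest to the lowest score, for the 3 lists long enough to divide. In both lists with IL3 the other list with IL3 finds the most in the highest part, 65.2% and 87.3%, while regions of without-IL3 replicate 2 are found most in with-IL3 replicate 2, 57.9% in the highest part.

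The STAT motif was present in a larger share of the promoter regions gained with IL3 than of all promoter windows. The motif was sought in the 121 central bases of regions whose centre and flanks lie in a RefSeq promoter window, on chromosomes other than 18. It was present in 3.36% of all 32851 promoter windows, counted over their central 121 bases. Of the gained promoter regions, 47 of 93 held it (50.5%, 95% Wilson interval 40.6 to 60.5). Of those in with-IL3 replicate 1 alone, 104 of 365 did (28.5%, 24.1 to 33.3). The share was 2 of 312 in with-IL3 replicate 2 alone (0.641%), 1 of 277 in replicate 2 of both conditions (0.361%) and 2 of 579 in without-IL3 replicate 2 alone (0.345%), all below that of all windows. Regions called in both lists with IL3 and in without-IL3 replicate 2 held it in 8 of 56 (14.3%). These intervals cover counting error only.

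By list, 173 of 589 promoter regions of with-IL3 replicate 1 held the motif (29.4%) and 46 of 733 of with-IL3 replicate 2 (6.28%). Without IL3 the counts were 0 of 34 in replicate 1, which allows a share of up to 8.82% by the limit of 3 counts and 10.2% by the upper Wilson bound, and 7 of 973 in replicate 2 (0.719%). In the central bases both lists with IL3 were above both without. The means were 17.8% ± 16.3 and 0.36% ± 0.509 (SD, n = 2 each), a difference of 17.46 percentage points with p = 0.33 by the exact two-sided permutation test, the smallest possible, and 0.555 after adjustment. The difference was 5.92 points without with-IL3 replicate 1 and 29.01 without with-IL3 replicate 2. Over whole promoter windows that a region overlapped, the shares were 29.4% and 10.0% with IL3 and 13.7% (10 of 73) and 3.93% without, so the conditions overlapped. That difference was 10.91 points, with p = 0.667 by the exact permutation test.

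The share with the motif rose with score in the lists with IL3. Each list but without-IL3 replicate 1 was divided by score into 4 parts of equal size. In with-IL3 replicate 1 it was 61.5% in the highest part, then 28.6%, 17.7% and 9.52%. In with-IL3 replicate 2 it was 16.3% in the highest part and 2.19% to 3.28% in the others. In without-IL3 replicate 2 the highest part held the motif in 0 of 244 regions, and the other parts held it in 0.412% to 1.65%. Among the 352 highest-scoring regions of each list, the motif was in 6 of 9 and 16 of 36 promoter regions with IL3, and in 0 of 34 and 0 of 155 without.

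**Figure D3:**
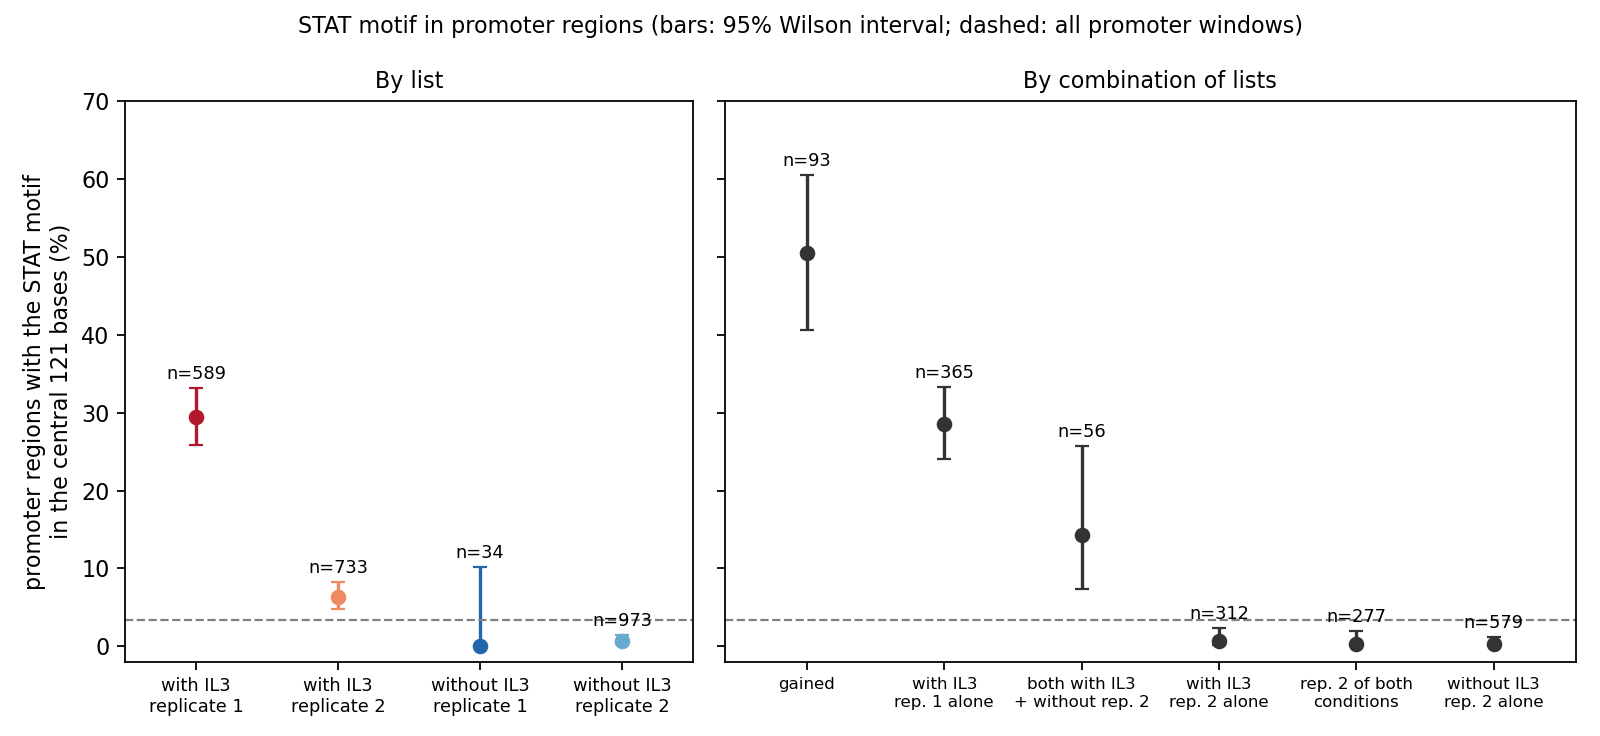
Share of promoter regions (%) with TTCNNNGAA in the central 121 bases, by list on the left and by combination of lists on the right, with 95% Wilson intervals and the number of regions over each point. Gained regions reach 50.5%, and the 3 classes of replicate 2 regions on the right lie below the dashed line at 3.36%, the share of all promoter windows.

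In with-IL3 replicate 1, matches lay near the middle of the called regions, and this was less clear in with-IL3 replicate 2. Within 100 bp of the centre, with-IL3 replicate 1 had 134 matches, of which 48.5% lay within 25 bp, and their median distance was 26.0 bp. With-IL3 replicate 2 had 36 matches, 38.9% of them within 25 bp, with a median of 40.5 bp. In 16-bp bins, replicate 1 had 23 and 21 matches in the bins beside the centre and 1 to 17 in the others. Replicate 2 had 6 and 3 beside the centre and 1 to 5 in the others. Without-IL3 replicate 2 had 8 matches, 25% of them within 25 bp, with a median of 62.0 bp, and without-IL3 replicate 1 had 2 with a median of 66.5 bp and none within 25 bp. Of whole promoter windows that a gained region overlapped, 47.6% of 227 held a match and 5.29% held more than 1, against 8.3% and 0.457% of all windows.

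**Figure D4:**
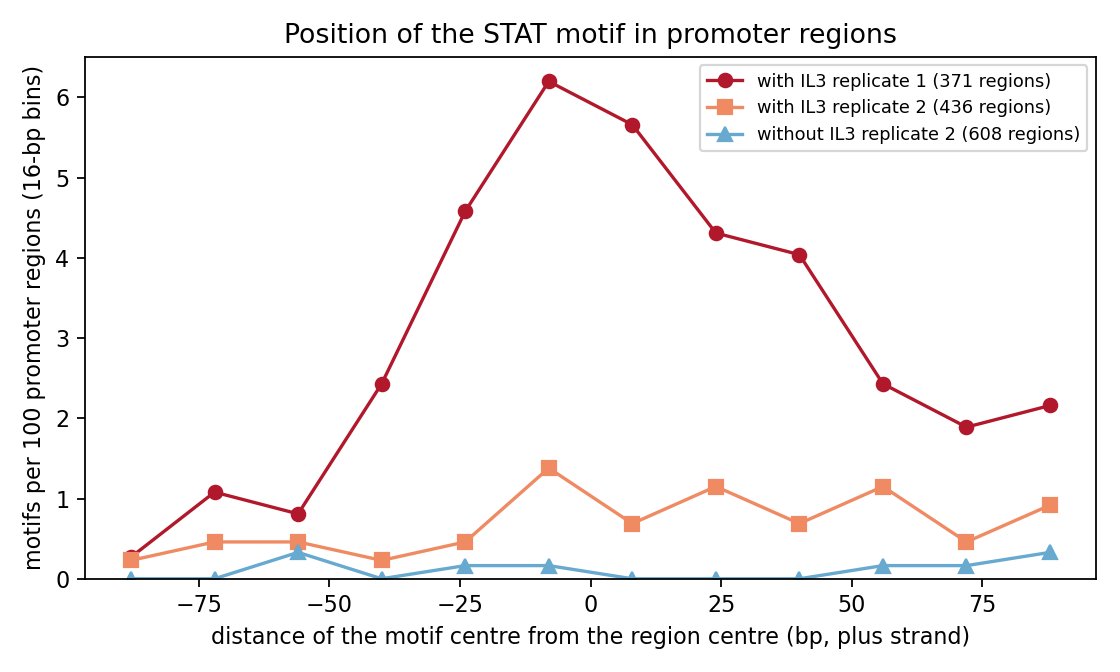
STAT motifs per 100 promoter regions by distance from the region centre (bp), in 16-bp bins, for the 3 lists with more than 34 promoter regions. The curve of with-IL3 replicate 1 is highest beside the centre, and that of without-IL3 replicate 2 stays near 0.

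Other sequence features also differed between the classes of regions. The same palindrome with a spacer longer by 1 base, known from STAT6, was in 5.38% of the gained promoter regions and in 2.53% of all windows. The letters GGGCGG, the GC box, were in 37.6% of the gained regions, 21.4% of those in with-IL3 replicate 1 alone, 59.9% of those in with-IL3 replicate 2 alone and 60.6% of those in without-IL3 replicate 2 alone, against 22.3% of all windows. CCAAT was in 35.6% of the regions in without-IL3 replicate 2 alone and in 15.1% of the gained ones, against 21.1% of all windows. Median GC content was 61.2% in gained regions, 73.6% in with-IL3 replicate 2 alone, 74.4% in replicate 2 of both conditions and 52.9% in all windows. Each motif was counted on both strands, a match is only a match of letters, and the part of base composition in these shares was not tested.

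Gained regions lay far from transcript starts more often than the regions of replicate 2 shared between conditions. Of the gained regions, 17.4% had their centre within 1 kb of a start (15.7 to 19.3), with a median distance of 12532 bp. Of the regions in replicate 2 of both conditions, 71.9% lay within 1 kb of a start (69.1 to 74.5), with a median of 168 bp. The shares were 14.8% in with-IL3 replicate 1 alone, 50.6% in with-IL3 replicate 2 alone and 58.5% in without-IL3 replicate 2 alone.

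By list the shares within 1 kb of a start were 16.4% and 44.3% with IL3 and 25.8% and 60.3% without, so the conditions overlapped. Their means differed by -12.72 percentage points (30.3% ± 19.8 with and 43.1% ± 24.4 without IL3, SD, n = 2 each), with p = 0.667 by the exact two-sided permutation test, also after adjustment. In each condition the share of replicate 2 was above that of replicate 1. For the ends of protein-coding genes the shares were 16% and 44.0% with IL3 and 22.2% and 60.9% without, a difference of -11.51 points (exact permutation p = 0.667) that turned to 2.51 without with-IL3 replicate 1 and to 7.85 without without-IL3 replicate 2. In the 352 regions of highest score of each list, an alternative chosen after seeing the data, the shares at gene ends were 8.52% and 18.2% with IL3 and 22.2% and 74.1% without. There the conditions did not overlap, with a difference of -34.8 points and p = 0.33 by the exact permutation test, the smallest possible.

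Among 21887 protein-coding genes, 1381 (6.31%) had a region within 10 kb of an end in both lists with IL3 and in neither without, called gained genes below. The opposite held for 5 genes (0.0228%), Ppm1d, Bcas3, Coro7, Nup54 and Scarb2, and no gene of the lists below was among them. Of the gained genes, 700 had a gained region within 10 kb, while the regions of the other 681 did not overlap between the lists with IL3. A gene can also carry gained regions and still not be a gained gene, where another region nearby was called without IL3. Leaving out a list could not lower the number of gained genes. It rose to 2282 without with-IL3 replicate 1, to 3902 without with-IL3 replicate 2 and to 3055 without without-IL3 replicate 2. Of all genes, 30.1% and 23.8% had a region within 10 kb in with-IL3 replicates 1 and 2, and 1.23% and 21.4% in without-IL3 replicates 1 and 2. Gene lists were chosen by function, with earlier results of these data known, and their counts are set beside these shares and the 6.31% of gained genes as a description.

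Genes of feedback inhibitors of cytokine signalling were at some of the highest regions with IL3, with Cish ranked 3 in replicate 1 and Socs2 and Socs3 ranked 4 and 10 in replicate 2. Of 16 such genes, 13 had a region within 10 kb in with-IL3 replicate 1, 10 in with-IL3 replicate 2, 1 in without-IL3 replicate 1 and 8 in without-IL3 replicate 2. These are 81.2%, 62.5%, 6.25% and 50% of the list, each above the share of all genes in that list of regions. Gained genes were Socs1, Socs5 and Spred1, 18.8% of the list, and the list held 6 gained regions. Socs5 falls outside the rule for named genes and was named after its values were seen.

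Cish had 4 regions in each list with IL3 and 1 in each list without. Around the gene, chr9:107296659-107302784, the start region described above was flanked by 3 gained regions. They lay 851 bp before the start and 5129 and 6034 bp beyond the far end, and scored 372.9, 346.8 and 555.6 in with-IL3 replicate 1 and 110.0, 305.1 and 205.1 in with-IL3 replicate 2. The only region in without-IL3 replicate 2 was a separate one at chr9:107289732-107289872, with 27.2, beside the start of another transcript. The start region was thus the only region at Cish called in a list of each condition.

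Socs3, which encodes an inhibitor of JAK kinases, had 3 gained regions. The first, chr11:117969139-117969379, lay inside the gene 107 bp from a start and scored 272.2 and 310.1 in the lists with IL3. The others lay 5895 and 9261 bp outside, with 123.1 and 276.0 in replicate 1 and 175.1 and 45 in replicate 2. Without IL3, replicate 2 held a neighbouring region of 33.9 in the gene, and replicate 1 held none.

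Socs2, an inhibitor best known from growth hormone signalling, had a region 442 bp from a start, chr10:95416832-95417033, that scored 313.3 and 385.1 with IL3. The same region was called in without-IL3 replicate 2 with 27.2, where the median score of that list is 23.8. At Socs1, an inhibitor that acts on JAK kinases, the 3 regions of with-IL3 replicate 1 (123.1 to 328.2) and the 2 of replicate 2 (50 and 60) did not overlap each other. Spred1, an inhibitor of RAS signalling, showed the same, with a region of 60 at its start in replicate 2 and 1 of 167.8 located 2023 bp inside the gene in replicate 1. Neither list without IL3 held a region within 10 kb of Socs1 or Spred1.

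At several survival genes the highest regions with IL3 lay away from the start. Of 18 genes of PIM kinases and the BCL2 family, 13, 9, 1 and 9 had a region within 10 kb in with-IL3 replicates 1 and 2 and without-IL3 replicates 1 and 2, or 72.2%, 50%, 5.56% and 50%, again above the shares of all genes in the same lists. Pim3, Mcl1 and Bmf were gained (16.7%). The highest region of with-IL3 replicate 2, at 570.2, lay 4832 bp beyond an end of Pim1, at chr17:29500829-29501057, and scored 413.9 in with-IL3 replicate 1. This region was gained in the STAT5A lists and was also called in all 6 pooled lists of the study, those of LSD1, HDAC3 and STAT5A without IL3 included.

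Close beside it, with-IL3 replicate 1 held a region of 421.4 at chr17:29499679-29499851 and with-IL3 replicate 2 a region of 105.0 at chr17:29499988-29500168, which did not overlap. The region at the Pim1 start, printed above, was called in replicate 2 of both conditions. Mcl1, which encodes a protein that keeps cells from apoptosis, had a gained region 6048 bp outside the gene with 242.4 and 70. Pim3, a kinase gene of the same family as Pim1, had a gained region with 156.6 and 60.

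Genes of the pro-apoptotic branch differed from each other. Bmf had a gained region inside the gene, 179.0 and 130.0 with IL3. Bbc3, which encodes PUMA, had a region of 104.4 in with-IL3 replicate 1 that was also called at 82.1 and 30.6 in the lists without IL3, and with-IL3 replicate 2 held only a separate region of 55.0 near the start. The gene of the survival protein BCL-XL, Bcl2l1, had a region deep inside the gene, chr2:152789581-152789812, at 663.8 and 190.1 with IL3 and 23.8 in without-IL3 replicate 2. It lies 24658 bp from the nearer end, outside the 10 kb counted, and was chosen after its values were seen.

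Among cytokines, a list of the IL3 and IL6 families and others, 3 of 16 genes were gained (18.8%), Osm, Lif and Il10. Il10 was counted through regions that did not overlap between the lists with IL3. Osm encodes oncostatin M, a long-known STAT5 target in blood cells, and had 4 regions in each list with IL3 and none without. The region 32 bp from an end of the gene, chr11:4236649-4236857, scored 399.0 and 265.1, and gained regions 890 and 3955 bp outside scored 354.3 and 149.2 in replicate 1 and 75.0 and 70 in replicate 2. The neighbouring gene Lif had a gained region with 126.8 and 65.0, and the genes share 1 further region of with-IL3 replicate 2. At Tnf, the region with 197.6 and 85.0 was gained, and a separate region of 23.8 was called in without-IL3 replicate 2. Il3 itself had no region within 10 kb in any list.

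Receptor genes and components of the pathway itself followed. Of 20 receptor chains, Csf2rb and Il6ra were gained (10.0%). No list held a region within 10 kb of 9 of them (45.0%, against 56.3% of all genes). Csf2rb, the beta chain shared by IL3, IL5 and GM-CSF, had a gained region inside the gene with 216.3 and 60. Il4ra, a chain of the IL4 receptor, had gained regions 2356 and 9208 bp inside the gene, with 335.6 and 164.1 in replicate 1 and 150.0 and 100 in replicate 2, while a region of 23.8 outside it was called in without-IL3 replicate 2.

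Among JAK and STAT genes, Jak3 and Stat6 were gained. Both were counted through regions that did not overlap between the lists with IL3. For Jak3 these scored 52.2 in replicate 1 and 30 in replicate 2. For Stat6 they scored 41 to 85.8 in replicate 1 and 45 for each of 2 in replicate 2. Jak2 had its start called in replicate 2 of both conditions, 65.0 with and 44.1 without IL3, and a region of 123.1 in with-IL3 replicate 1. Stat5a had a region of 22.4 in with-IL3 replicate 1 and 1 in replicate 2 of both conditions, 35.0 and 20.4.

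Of 23 immediate early genes, 18 and 15 had a region within 10 kb in the lists with IL3, 1 in without-IL3 replicate 1 (4.35%) and 13 in without-IL3 replicate 2 (56.5%). Gained genes were Egr2, Egr3 and Id3 (13.0%). These 3 had lower scores in the pooled list with IL3 than the genes of the list described next, and were named after their values were seen. Id1, a helix-loop-helix inhibitor, had its strong region 4281 bp outside the gene with 391.6 and 190.1, called also in without-IL3 replicate 2 with 20.4 and in all 6 pooled lists. Junb had a gained region 345 bp outside the gene with 242.4 and 175.1, and other regions of 23.8 in without-IL3 replicate 2. Myc, a growth regulator, had regions of 104.4 and 37.3 in with-IL3 replicate 1 and 1 shared by replicate 2 of both conditions, 35.0 and 20.4. Nr4a1 had a region in all 4 lists, with 93.2 and 80.0 with IL3 and 32.8 and 81.5 without.

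The remaining lists are given by their counts. Among MAP kinase phosphatases 2 of 11 were gained (18.2%), Dusp7 and Dusp16, the latter with 350.5 and 55.0. Of 17 cell cycle genes only Ccnd2 was gained (5.88%), with a region 310 bp inside the gene at 197.6 and 70. Of 20 B lineage genes only Tcf3 was (5.0%). Their shares with a region were 25% and 20% in the lists with IL3 and 0 and 25% in those without. No list held a region within 10 kb of 13 of them (65.0%, against 56.3% of all genes), among them Pax5 and Ebf1, which define the lineage. Regions say nothing of whether these genes are expressed, so the pro-B label could not be checked against its markers.

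Other blood lineages had a few strong regions. Of 15 erythroid and megakaryocyte genes, Gata1 and Tmprss6 were gained (13.3%). The region inside Tmprss6, a protease gene that controls hepcidin in liver, was the second highest of with-IL3 replicate 2, with 470.2, and scored 529.5 in replicate 1. Nfe2 had gained regions of 231.2 and 346.8 in replicate 1 and 220.1 and 105.0 in replicate 2. The lists without IL3 held regions of 60.2 in replicate 1 and 47.5 in replicate 2, which did not overlap these. The gained region of 231.2 and 220.1, chr15:103258306-103258499, was also called in every pooled list of the study, that of STAT5A without IL3 included. It lay between the regions called without IL3, chr15:103257952-103258186 and chr15:103258522-103258662. Of 17 mast and myeloid genes, Cebpb and Gfi1 were gained (11.8%), and Gfi1 had 160.4 and 35.0 as its highest scores. No gene of 15 of the T cell list was gained, and 1 of 20 genes of other tissues was, the liver gene Alb with 74.6 and 40.

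**Figure D5:**
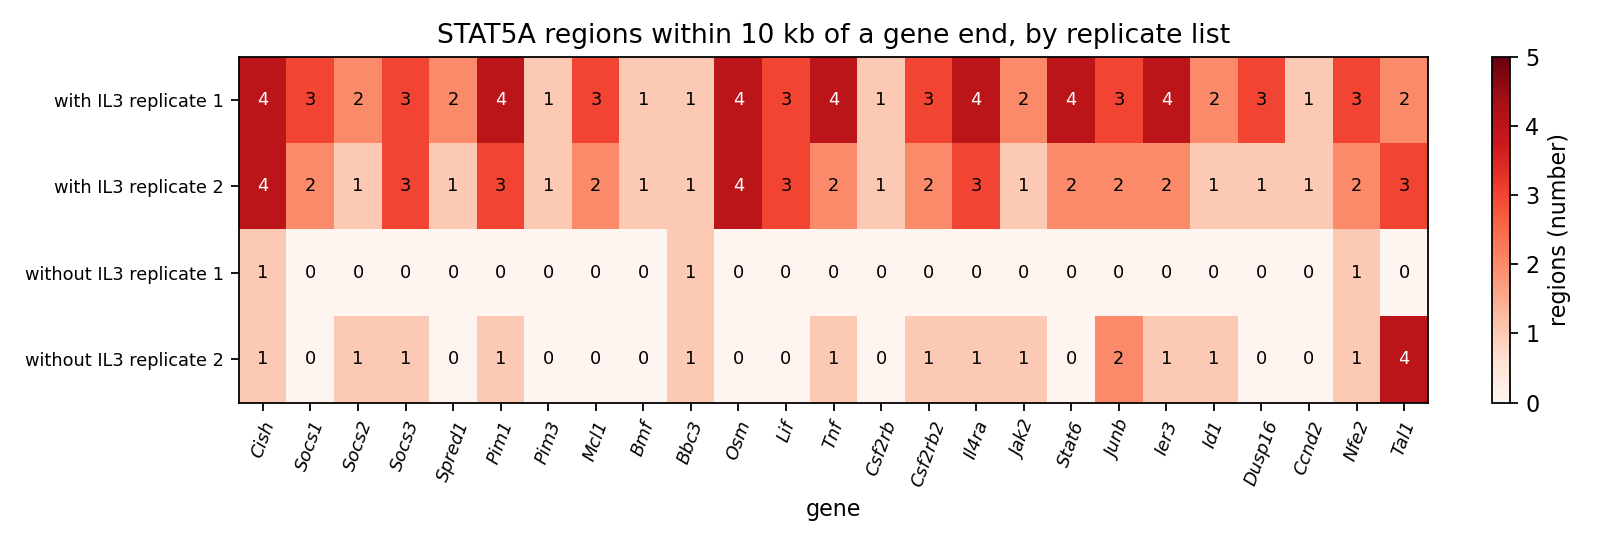
Number of STAT5A regions centred within 10 kb of an end of each gene (cell values and colour), in each replicate list, for 25 genes of the lists. The 25 genes were picked from the named genes and each has a region in both lists with IL3. Values above 0 in those lists follow from that choice and are no result. Most columns hold 0 or 1 region in the lists without IL3, while Tal1 has 4 in without-IL3 replicate 2.

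Genes with the most gained regions nearby were ranked after their values were seen. Of all genes, 16 had at least 3 gained regions within 10 kb, 93 at least 2 and 1142 at least 1. Cuedc2 had 4, with the highest scores of 365.5 and 180.1. Those with 3 included Cish, Osm, Socs3, Rhoh, Plek, C5ar1 and Zfp36. Zfp36 encodes a protein that speeds the decay of cytokine mRNAs, and its highest regions scored 186.5 and 290.1. Neighbouring genes share regions in this count, such as Zfp36, Plekhg2 and Med29, or C5ar1 and C5ar2. Of the 1811 gained regions, 277 (15.3%) had another within 10 kb.

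The highest 4 of the 1069 regions called in replicate 2 of both conditions, and in no other list, lay near or in Axin2, Rpp21, Cdk8 and Pex2, genes named after their values were seen. They scored 420.1, 250.1, 250.1 and 245.1 with IL3 and 312.3, 176.5, 196.9 and 169.7 without, and each was called in all 6 pooled lists of the study, as were 22 of the 1069 (2.06%). The overlap between replicates 2 was 21.5% of the 6280 regions with IL3 and 30.0% of the 4504 without, while that between replicates 1 was 1.44% of 13572 and 55.4% of 352. What a replicate number stands for is not given in the sources used here, and its part in these overlaps was not tested.

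The 49 regions in all 4 lists included sites near Clint1, inside Dnah8 and inside Zswim6. The Clint1 region scored 563.1 and 80.0 with IL3 and 38.3 and 23.8 without. The Zswim6 region scored 223.8 and 50 with and 109.4 and 47.5 without. Of these 49 regions, 40.8% were called in all 6 pooled lists, against 1.77% of the gained regions. The highest regions of without-IL3 replicate 1, chr9:35305126-35305360 (213.3) and 2 on chromosome 2 (131.3 and 120.3), 1034635 and 1031122 bp from the nearest end, that of Lrrc4c, were also called in with-IL3 replicate 1 and in neither replicate 2.

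Scores of the 10 lost regions had medians of 38.3 and 25.5 in without-IL3 replicates 1 and 2, where all regions of these lists had 38.3 and 23.8. They ranged from 32.8 to 60.2 in without-IL3 replicate 1 and from 17.0 to 47.5 in without-IL3 replicate 2, whose lowest called score is 17.0. The first by score in without-IL3 replicate 2 lay 1083 bp from an end of Nfic, a gene of a CCAAT-binding factor, with 38.3 and 47.5. Others lay in or near Lrig1, Nup54, Xylb and Sipa1l1.

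The highest region of each single list with IL3 lay beside the other. The first of with-IL3 replicate 1 alone, chr1:182108869-182109041 with 689.9, and the first of with-IL3 replicate 2 alone, chr1:182108486-182108666 with 175.1, are adjacent and have Srp9 as the nearest gene. Centres of regions shared by the lists with IL3 lay a median of 44.0 bp apart, and 56.3% lay within 50 bp. Counting regions as shared when their centres lay within 500 bp gave 1948 gained regions in place of 1811.

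LSD1 lists were used to ask how far STAT5A regions coincided with this demethylase. The share overlapping the pooled LSD1 list with IL3 was 25.1% and 51.1% in the STAT5A lists with IL3 and 58.2% and 51.5% in those without. The means were 38.1% ± 18.4 and 54.9% ± 4.79 (SD, n = 2 each), a difference of -16.73 points with an exact two-sided permutation p of 0.33, the smallest possible, and 0.555 after adjustment. Both lists with IL3 were below both without, although 51.1% and 51.5% are close, and the longest list was the lowest. With 352 top regions of each list the difference was 9.23 points, with 62.5% and 78.4% with IL3 and 58.2% and 64.2% without.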

How the data were processed

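ChIP-seq of STAT5A in Ba/F3 cells gave 4 lists of called regions, 2 with and 2 without IL3. Trimmomatic 0.30, Bowtie2 2.1.0, Picard 1.92, HOMER 4.8 and the mm10 build are named in the submitters' processing notes. Their roles, and the control, threshold and filters of the peak calling, were not given in the sources used here, and read totals were not analysed here. Each region has a score that the authors deposited, which was used to rank regions within a list. Replicate lists were called per sample, and the 6 pooled lists on pooled libraries, per the labels.

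Regions were handled with Python 3.11.15, pandas 2.3.3, numpy 2.4.6, matplotlib 3.10.9 and scipy 1.17.1. Only assembled chromosomes were used, and the LSD1 and HDAC3 lists were used only for overlaps. Regions overlapping by 1 bp or more were merged. Genes were 21887 protein-coding RefSeq genes with their bounds, and 217 of 217 listed genes in 13 lists matched by symbol. Starts and motifs used 32851 RefSeq promoter windows of GRCm38.p6 for 27025 genes, with chromosome 18 not analysed here. Motifs outside promoter windows were not analysed here. Values per list were compared by exact two-sided permutation tests of 2 against 2, with Benjamini-Hochberg adjustment over 5 tests. Shares have 95% Wilson intervals, which cover counting error only.

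The comparison and the gene lists were chosen with earlier results of these data known. The rule for named genes took up to 6 genes per list with a region within 10 kb in both lists with IL3, by score in the pooled list with IL3. It added genes with regions in both lists without IL3 and genes at the 10 highest regions of the main combinations of lists. The comparisons of motifs and transcript starts, and the alternatives for motifs, for single genes and for gene ends at equal list length, were added after the data were seen. Alternatives were replicates left out in turn, a replicate block, other overlap rules and distances, the upper 50% of each list by score, equal list lengths, pooled lists, and removal of regions in all 6 pooled lists. The merging, motif search, score step and permutation test were tested on simulated data. Some genes of the lists are not reported here.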

Additional observations from a re-analysis of the deposited data

How the results depend on the processing

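Of 63 alternatives of the main results, 42 kept the result, 18 moved it and 3 turned its direction. For a difference, kept means only the same sign, and for a count a change of at most 1.5-fold. The kept ones include alternatives that could not change the difference. These are the replicate block and, for region number, the upper 50% of each list. For gained regions, lost regions and gained genes, leaving out a replicate removes a requirement of the rule. Those counts could only stay or rise, and such rises are among the moved ones. Gained regions numbered 125 at equal list length (352 regions) and 13854 in pooled lists, and 1861 to 12971 with a replicate left out. Lost regions numbered 4 in the upper 50% by score, 28 at equal length and 3354 in pooled lists, and 15 to 2929 with a replicate left out. Gained genes numbered 882 in the upper 50% by score, 50 at equal length, 4503 in pooled lists, 460 at 1 kb and 2342 at 50 kb, and 1412 to 3902 with a replicate left out. The share near gene ends ranged from -30.87 to 7.85 points with a replicate left out and was positive at 2.51 and 7.85. The LSD1 share was 9.23 points at equal length. The cause was not tested.

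Of 400 alternatives for 50 named genes, 286 kept and 109 moved the difference in region number, and 5 turned it. These were -0.5 for Dusp5, Gata2 and Jak2 and -1.0 for Nr4a1 at equal length, and -1.5 for Tal1 without without-IL3 replicate 1, where leaving out other replicates gave up to 2.5.

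Blocked by replicate number, the differences were 2.87 for region number, -11.51 for gene ends, -16.73 for LSD1 and 17.46 for the motif. With 1 list of each condition per block, these equal the unblocked differences by arithmetic and say nothing of stability. The exact sign-flip test of 2 pairs cannot go below p = 0.5. Deviations of same-numbered lists correlated at 0.34 over the 20764 regions, and with 2 pairs the numbers are treated as numbers alone. Depth is unknown, and a region missing from a list may lie under the 4 or 5 score steps at which calling began.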

Other observations

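HDAC3 and LSD1 lists by replicate gave the following at the 1811 gained STAT5A regions. LSD1 was called at 3.92% and 37.3% of them in its replicates without IL3 and at 33.7% and 47.5% with IL3. HDAC3 was called at 9.83% and 2.6% without and at 10.7% and 0.221% with IL3. Over all 20764 merged STAT5A regions, LSD1 was called at 2.75% and 26.8% without and 15.3% and 25.9% with IL3, and HDAC3 at 4.86% and 1.24% without and 2.56% and 0.241% with. At the 1069 regions in replicate 2 of both STAT5A conditions, LSD1 was called at 8.89% and 58.3% without and 35.3% and 65.0% with IL3. The lengths of the LSD1 and HDAC3 lists differ between replicates, and their part in these shares was not tested.

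Binding letters of other factors in promoter regions were also counted by class. AGATAA, the core of GATA sites, was in 10.8% of the 93 gained promoter regions and in 4.73% of all windows. TGANTCA, the AP-1 site, was in 7.53% and 3.62%. CCGGAAG, an ETS site, was in 10.8% of the gained regions, 14.8% of those in with-IL3 replicate 1 alone and 3.22% of all windows. It was also in 8.65% of those in with-IL3 replicate 2 alone, 10.8% in replicate 2 of both conditions and 9.5% in without-IL3 replicate 2 alone. Its higher share was thus not particular to the gained regions. These were counted on both strands as matches of letters.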
